A study of Mus musculus with 6 samples.

Results

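Early B-cell factor 1 (Ebf1), its paralogs Ebf2 and Ebf3 and the B-cell genes Pax5, Cd79a, Cd79b and Blnk were examined in mouse lung endothelial cells that overexpress the adhesion molecule L1CAM. These are 7 of the 19938 genes measured. Ebf1 was chosen by its measured difference between L1CAM and control cells, which was among the largest rises in the same comparison. Its difference is therefore given as a description with no test. The other 6 genes were taken as relatives of Ebf1 or as B-cell genes that it is known to drive. Each member had 1 probe set annotated with its symbol alone.

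The L1CAM cells were C57BL/6 lung endothelial cells with a stable transfection of full-length mouse L1CAM in the vector pcDNA3.1/Hygro(-). The control cells were the same cells carrying that vector empty. Both were grown for 4 days to confluence in medium with 20% serum, and 3 arrays per group, labelled as biological replicates, were hybridised. Pool and clone are not told apart in the labels, nor are separate transfections of the replicates, so p-values measure the spread between these cultures only.

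EBF proteins are transcription factors that bind DNA as dimers, on a palindrome with the core CCCNNGGG. In lymphocyte precursors EBF1 acts with E2A (Tcf3) and PAX5 to open the B-cell programme, and Cd79a, Cd79b, Blnk and Pax5 are among its known targets there. EBF factors also act outside the blood, in olfactory neurons, in adipocyte precursors and in stromal and mural cells.

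The promoter of Cd79a is shown because this gene, also called mb-1, is the target through which EBF1 was first recognised in B cells, and that of Ebf1 because Ebf1 is the member that differed. RefSeq promoter windows on GRCm38.p6 were at hand for 5 of the 7 members. Each sequence below is the 250 bases before the start, 5′ to 3′ on the gene's strand, with the stretch CAAGGGA, part of the known EBF1 site of Cd79a, in capitals. The Cd79a window lies at chr7:24897247-24897496 on the plus strand and the Ebf1 window at chr11:44617850-44618099 on the plus strand. The table holds 2 windows for Ebf1, and the more upstream of them is shown.
Cd79a: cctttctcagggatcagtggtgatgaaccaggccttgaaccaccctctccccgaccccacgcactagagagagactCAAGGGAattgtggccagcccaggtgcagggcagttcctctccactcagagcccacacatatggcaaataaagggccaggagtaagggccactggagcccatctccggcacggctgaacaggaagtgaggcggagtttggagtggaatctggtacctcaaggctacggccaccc
Ebf1: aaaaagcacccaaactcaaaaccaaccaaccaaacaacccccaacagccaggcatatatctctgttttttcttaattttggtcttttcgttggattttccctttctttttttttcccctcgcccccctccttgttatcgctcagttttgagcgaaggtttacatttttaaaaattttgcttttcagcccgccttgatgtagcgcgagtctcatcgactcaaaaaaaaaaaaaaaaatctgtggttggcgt
In the Cd79a window CAAGGGA, picked after reading that window, began 174 bases before the start. It was searched on both strands over windows from 250 bases before to 50 after the start, and 5.06% of the 32851 promoter windows held it. The palindromic core CCCNNGGG, searched the same way, was found in 13.7% of windows. Among the members it was found in that of Ebf3 and not in those of Pax5, Cd79a, Ebf1 (either window) and Blnk. A match is a string of letters and not a shown site, and a missing match says only that these letters are not in the window.

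All values are log2 expression values made with RMA, and all differences are L1CAM minus control. The transfected gene checked the labels: L1cam read 10.49 to 10.73 on the L1CAM arrays, against 6.50 to 7.31 on the control arrays. L1CAM replicate 1 stood apart from the other 2 L1CAM arrays, with which it correlated at 0.9948 and 0.9951 across genes, against 0.9986 between replicates 2 and 3. With the control arrays it correlated at 0.9935 to 0.9952, so by this measure it lay as near to them as to its own group. The array medians lay between 6.55 and 6.58. No detection calls were used, so a gene below these medians was not shown to be above background. Of the 12 endothelial markers 12 lay above the array medians in at least 1 group, and the endothelial cadherin Cdh5 read 13.02 to 13.07 on the L1CAM arrays and 13.10 to 13.13 on the control arrays. In RNA of whole cultures, fewer cells of a type and less RNA per cell cannot be told apart.

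Ebf1, the master regulator of early B cells, was higher in L1CAM cells. It read 9.50, 9.07 and 8.92 in L1CAM replicates 1 to 3, against 7.10, 6.24 and 6.53 in control replicates 1 to 3. The groups did not overlap: the lowest L1CAM array lay 1.82 above the highest control array. The L1CAM mean was 9.16 ± 0.30 and the control mean 6.62 ± 0.44 (log2, SD, n = 3 each), a difference of 2.54 or 5.83-fold. Ebf1 lay above the array median on all 3 L1CAM arrays but on only 1 of 3 control arrays, so its fold is not exact. L1CAM replicate 1, the array that stood apart, had the highest Ebf1 value of the 6, and the difference without it was 2.38.

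Neither of the paralogs Ebf2 and Ebf3 passed the test. Ebf2, a factor of brown fat and of neurons, read 4.81, 4.93 and 4.82 in L1CAM replicates 1 to 3, against 4.77, 4.79 and 4.87 in control replicates 1 to 3. The groups overlapped, all 6 arrays lay below their medians, and the difference was 0.04 (SE 0.06), with a limma adjusted p of 0.70 over all genes. The 95% interval of that difference ran from -0.10 to 0.18, so its upper bound is a 1.14-fold rise.

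Ebf3, a factor of the nervous system and of stroma, had values of 6.87, 6.69 and 6.69 in L1CAM replicates 1 to 3, against 6.66, 6.41 and 6.53 in control replicates 1 to 3. The groups did not overlap, but only 0.03 separated the nearest arrays of the 2 groups, and 34.6% of all genes showed no overlap in either direction. The difference was 0.22 (SE 0.08, limma adjusted p = 0.13), with a 95% interval from 0.02 to 0.41, at most 1.33-fold. Its values lay close to the array medians, above them on 3 of 3 L1CAM arrays and 1 of 3 control arrays.

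**Figure D1:**
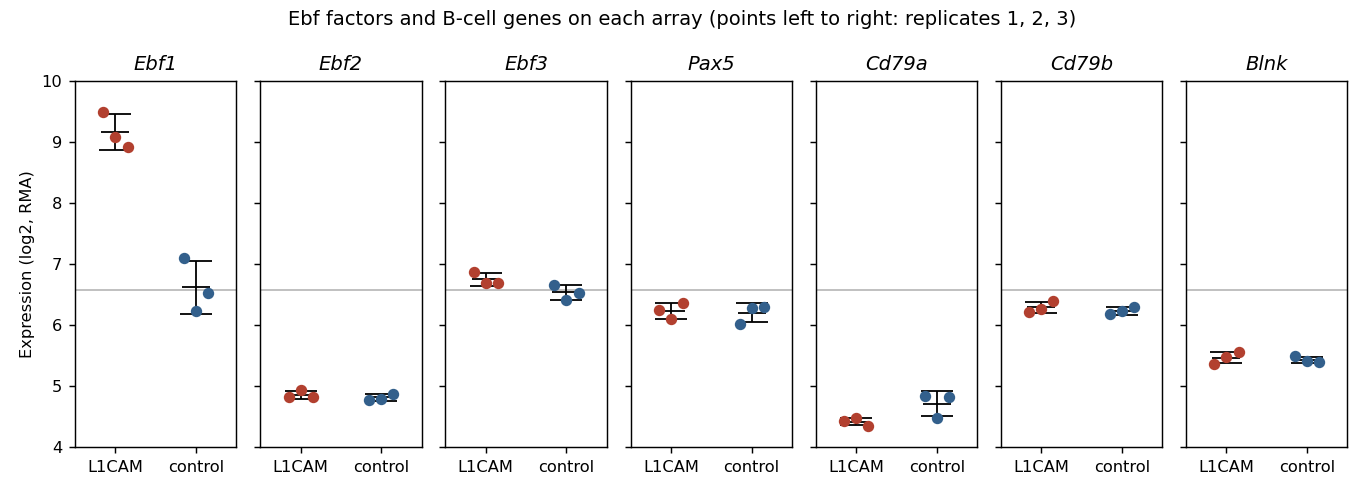
Expression (log2, RMA) of the 7 members on each array, L1CAM left of control. Points are replicates 1, 2 and 3 from left to right, bars are the mean ± SD (n = 3), and the grey line is the range of the array medians. Ebf1 separates the groups by 1.82, Ebf3 lies close to the grey line, and the other 5 members lie below it in both groups.

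None of the 4 B-cell members passed the test. Pax5, the factor that commits cells to the B lineage, read 6.24, 6.10 and 6.35 in L1CAM replicates 1 to 3, against 6.02, 6.27 and 6.30 in control replicates 1 to 3. These ranges overlapped, and the difference of 0.03 (SE 0.10) had a limma adjusted p of 0.87. Its 95% interval ran from -0.19 to 0.26, at most a 1.20-fold rise. Leaving out 1 array could turn its sign, to -0.06 without control replicate 1 and to -0.03 without L1CAM replicate 3.

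Cd79a and Cd79b encode the signalling chains of the B-cell receptor, Igα and Igβ. Cd79a gave 4.42, 4.48 and 4.35 in L1CAM replicates 1 to 3, against 4.83, 4.47 and 4.83 in control replicates 1 to 3. All 3 L1CAM arrays lay near the lowest control array, replicate 2, which overlapped them. The difference of -0.29 (SE 0.10) was in the direction opposite to Ebf1 and did not pass the test (limma adjusted p = 0.097, 95% interval -0.53 to -0.06). It passed without control replicate 2, at -0.41 with a limma adjusted p of 0.0256, and had adjusted p-values of 0.0626 or more under every other alternative that gave it a value. All 6 Cd79a values lay below the array medians, so expression above background was not shown in either group.

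Cd79b, on chromosome 11 like Ebf1, gave 6.22, 6.27 and 6.38 in L1CAM replicates 1 to 3, against 6.17, 6.22 and 6.30 in control replicates 1 to 3. The ranges overlapped, with a difference of 0.06 (SE 0.07, limma adjusted p = 0.63, 95% interval -0.10 to 0.21). Blnk, the adaptor that links the B-cell receptor kinase Syk to its effectors, gave 5.36, 5.48 and 5.55 in L1CAM replicates 1 to 3, against 5.49, 5.40 and 5.39 in control replicates 1 to 3. Its groups overlapped too, and the difference was 0.04 (SE 0.07, limma adjusted p = 0.77, 95% interval -0.12 to 0.19). The upper bounds of these intervals are rises of 1.16-fold for Cd79b and 1.14-fold for Blnk.

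Of the 6 members other than Ebf1, limma called 0 at an adjusted p under 0.05, against 15% of all genes. Ebf3 and Cd79a, 2 of the 6, had an unadjusted p under 0.05, in opposite directions, against 5788 of all 19938 genes. An ordinary linear model also called 0 of the 6. Their median difference was 0.04, against 0.02 over all genes, and 5 of them had both group means below the array medians. For the 4 B-cell members the upper bounds of the 95% intervals lay between -0.06 and 0.26 on the log2 scale, beside a difference of 2.54 for Ebf1. Signals close to background can understate a change. How close these signals lie to background was not measured, and what part that has here was not tested.

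**Figure D2:**
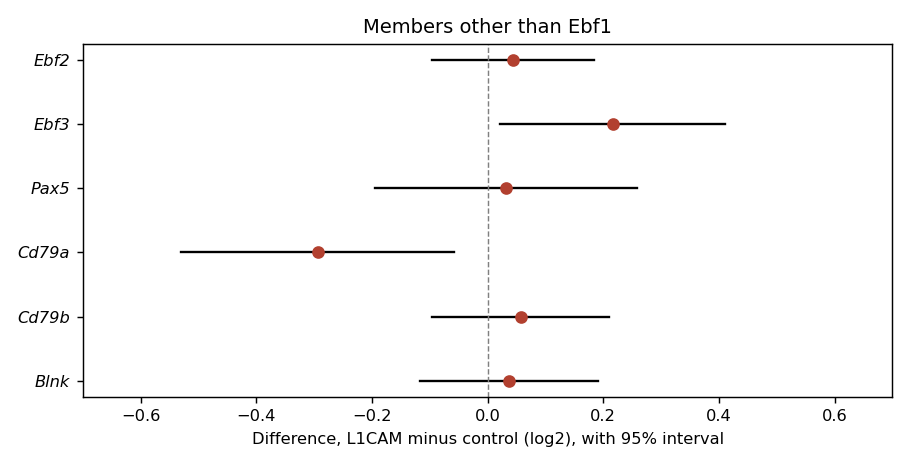
Difference between L1CAM and control cells (log2, horizontal axis) for the 6 members other than Ebf1, with the 95% interval from limma. Ebf2, Pax5, Cd79b and Blnk lie between 0.03 and 0.06 with intervals across 0, Ebf3 lies at 0.22 and Cd79a at -0.29.

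The wider B-cell programme was also read, from 3 lists of B-lineage transcription factors, B-lineage surface and pre-B receptor genes, and B-cell receptor signalling genes. Of 50 listed genes 47 were measured, and 2 rose and 3 fell, against 6.85% of all genes higher and 8.19% lower. The count varied with single arrays: it was 9 without L1CAM replicate 1 and 2 without any 1 of the other arrays. Calls over all genes moved the same way, from 2999 to 4952 without L1CAM replicate 1. Without any 1 of the other arrays they numbered 1033 to 1809. An ordinary linear model called 1 of the 47, Irf8, and, over all 124 measured list genes, 2, Irf8 and Arhgdib.

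Among the 16 transcription factors of the B lineage 1 rose and 2 fell, 18.8% against 15% of all genes. The list median was 0.01, against 0.02 over all genes. Runx1, a factor of blood formation that cooperates with EBF1 in early B cells, rose 1.68-fold (limma adjusted p = 0.0229). It read 7.70, 8.30 and 8.39 in L1CAM replicates 1 to 3, against 7.40, 7.35 and 7.39 in control replicates 1 to 3, so the smallest rise was that of L1CAM replicate 1. Irf8, an interferon regulatory factor of B and myeloid cells, was 1.31-fold lower. It read 6.77, 6.83 and 6.84 in L1CAM replicates 1 to 3, against 7.20, 7.26 and 7.15 in control replicates 1 to 3 (limma adjusted p = 0.00489), and kept its call in all 16 alternatives. Spib, an ETS factor of B cells, fell by 0.22 (limma adjusted p = 0.0376) at levels below the array medians. Tcf3, which encodes E2A, differed by 0.14 (limma adjusted p = 0.19) and Foxo1, another partner of EBF1 in B-cell precursors, by -0.01 (limma adjusted p = 0.94). The calls of Runx1 and Spib were lost when any 1 array other than L1CAM replicate 1 was left out, and that of Spib also with array medians set to 0.

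Of 19 measured surface and pre-B receptor genes 1 rose and 1 fell, with a median of -0.01, and 15 had both group means below the array medians. Bst1, an ectoenzyme of bone marrow stroma and early B cells, was 1.55-fold lower. It read 9.89, 10.07 and 10.16 in L1CAM replicates 1 to 3, against 10.60, 10.74 and 10.68 in control replicates 1 to 3 (limma adjusted p = 0.00344). This separation of the groups kept its call whichever array was left out. Rag2, a subunit of the V(D)J recombinase, rose by 0.26 (limma adjusted p = 0.0372) at levels of 3.88 ± 0.08 in L1CAM cells and 3.62 ± 0.07 in control cells (SD, n = 3 each), far below the array medians. Igll1, Vpreb1 and Vpreb3, surrogate light chain genes that EBF1 drives in B-cell precursors, differed by 0.04, -0.07 and 0.07 and did not pass (limma adjusted p of 0.54 or more). Vpreb1 has a close relative, Vpreb2, so its probes may read both. The call of Rag2 was lost when any 1 array other than L1CAM replicate 1 was left out.

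Of 12 measured B-cell receptor signalling genes 0 passed the limma test, against 15% of all genes, with a median of 0.05. At an unadjusted p under 0.05 there were 2, Plcg2 and Inpp5d, against 5788 of all 19938 genes. Plcg2, the phospholipase downstream of Blnk, read 9.62, 8.59 and 8.65 in L1CAM replicates 1 to 3, against 9.54, 9.55 and 9.62 in control replicates 1 to 3. L1CAM replicates 2 and 3 were thus low while replicate 1 stood with the control arrays. The difference was -0.62 (SE 0.25, limma adjusted p = 0.14), and -0.95 without L1CAM replicate 1 (limma adjusted p = 3.28e-05). It also passed with array weights (-0.84, limma adjusted p = 0.00400) and under no other alternative. Inpp5d, the lipid phosphatase SHIP1, measured -0.20 (limma adjusted p = 0.0621) and passed under 4 of the 16 alternatives, with adjusted p-values of 0.0280 to 0.0404 there.

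Among EBF relatives and cofactors, genes passed in both directions: of 7 genes 2 rose and 2 fell, against 6.85% and 8.19% of all genes, and the list median was 0.25. Ebf4, the remaining EBF paralog and not a member of the set, rose 1.27-fold (difference 0.35, SE 0.06, limma adjusted p = 0.0115). Its values were 7.78, 7.94 and 7.78 in L1CAM replicates 1 to 3, against 7.47, 7.51 and 7.49 in control replicates 1 to 3, and all L1CAM arrays lay above all control arrays. The call was lost without control replicate 2 or 3.

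Zfp521 and Zfp423 encode related zinc finger proteins that bind EBF1 and can block its activity. Zfp521 was 1.64-fold lower, with 9.83, 9.16 and 9.23 in L1CAM replicates 1 to 3, against 10.11, 10.14 and 10.12 in control replicates 1 to 3 (limma adjusted p = 0.0249). The fall was smallest in L1CAM replicate 1. Zfp423 was 1.15-fold lower, with 9.84, 9.80 and 9.80 in L1CAM replicates 1 to 3, against 10.06, 9.97 and 10.01 in control replicates 1 to 3 (limma adjusted p = 0.0433). Both calls were lost when any 1 array other than L1CAM replicate 1 was left out, and that of Zfp423 also with array medians set to 0. Id4, of the inhibitors of E proteins, rose by 0.27 (limma adjusted p = 0.0241), while Id1 (0.25), Id2 (-0.03) and Id3 (0.27) did not pass. The call of Id4 was lost without control replicate 1 or 3 and without L1CAM replicate 2 or 3.

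Programmes of EBF factors outside the blood moved in single genes. Of 12 adipocyte and stromal genes 2 rose and 1 fell, with a median of 0.06, against 6.85% of all genes higher and 8.19% lower. Cebpb, an early adipogenic and stress-induced factor, read 7.42, 8.05 and 7.93 in L1CAM replicates 1 to 3, against 7.20, 7.10 and 7.08 in control replicates 1 to 3, a 1.60-fold rise (limma adjusted p = 0.0241). Cebpd rose 1.28-fold (limma adjusted p = 0.0223). Fabp4, a fatty acid binding protein of adipocytes and endothelium, was 1.56-fold lower, with 12.15, 11.65 and 11.69 in L1CAM replicates 1 to 3, against 12.44, 12.51 and 12.47 in control replicates 1 to 3 (limma adjusted p = 0.0155). The largest difference of this list, that of Cxcl12, was 0.72 and did not pass (limma adjusted p = 0.0520). Cxcl12 read 8.90, 8.06 and 8.11 in L1CAM replicates 1 to 3, against 7.71, 7.57 and 7.63 in control replicates 1 to 3. Pparg, the adipocyte regulator known to lie downstream of EBF1, differed by -0.13 (limma adjusted p = 0.17). The calls of Cebpb, Cebpd and Fabp4 were lost without control replicate 2 or 3 and without L1CAM replicate 2 or 3, and that of Cebpb also without control replicate 1. Of 5 olfactory neuron genes 1 fell, the channel gene Cnga2 (-0.26, limma adjusted p = 0.0359), at levels below the array medians, with a list median of 0.12. Its call was lost without control replicate 1 or 3 and without L1CAM replicate 2 or 3.

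Cell type markers were read because Ebf1 is also known from lymphocytes and mural cells. Of 14 mural cell markers 0 rose and 2 fell, Anpep (-0.53, limma adjusted p = 0.00610) and Tbx18 (-0.47, limma adjusted p = 0.0191), while Pdgfrb (0.15), Rgs5 (-0.05) and Cspg4 (0.07) did not pass. The called share was 14.3%, near the 15% of all genes, and the list median was 0.02. The mean of the mural list was 6.06 to 6.12 on the L1CAM arrays and 6.13 to 6.14 on the control arrays. Both group means lay below the array medians for 10 of the 14, Pdgfrb, Rgs5 and Cspg4 among them. The other 4 were Tbx18, Notch3, Myh11 and Kcnj8. Tbx18 averaged 7.84 in L1CAM and 8.31 in control cells, and the group means of Notch3, Myh11 and Kcnj8 lay between 6.57 and 6.84. Of the 5 pan-leukocyte markers 0 rose and Arhgdib, which endothelium also expresses, fell by 0.25 (limma adjusted p = 0.0174). The leukocyte marker Ptprc (CD45) read 4.69 to 4.86 on the L1CAM arrays and 4.56 to 4.73 on the control arrays, below the array medians. Not all such markers were dim: 1 of 5 pan-leukocyte and 3 of 8 macrophage markers lay above the array medians in at least 1 group. The macrophage markers were Cd68 (mean 12.07 in L1CAM and 12.23 in control cells), Lyz2 (7.77 and 8.24) and Cx3cr1 (6.79 and 6.84). The pan-leukocyte list mean was 6.78 to 6.84 on the L1CAM arrays and 6.79 to 6.87 on the control arrays. Of 6 T cell, 8 macrophage and 8 fibroblast markers 0 passed the limma test. At an unadjusted p under 0.05 there was 1, the fibroblast marker Pdgfra (-0.21), against 5788 of all 19938 genes. The smallest p-values belonged to Cd3d (0.11) and Cd3e (-0.07) among T cell markers, Cd68 (-0.15) and Csf1r (-0.09) among macrophage markers, and Pdgfra and Dpt (0.22) among fibroblast markers. Of the 12 endothelial markers Robo4, a receptor of vessel guidance, rose by 0.44 (limma adjusted p = 0.0112) and Cldn5, a tight junction protein, fell by 0.22 (limma adjusted p = 0.0446), with a list median of -0.07. The calls of Tbx18 and Arhgdib were lost without control replicate 2 or 3 and without L1CAM replicate 2 or 3, that of Robo4 without control replicate 2, and that of Cldn5 without any 1 array other than L1CAM replicate 1. Cldn5 also lost its call with array medians set to 0. Anpep kept its call in each of these fits. Of the endothelial markers 8 were lower on every L1CAM array than on any control array and 1 was higher, against 16% and 18.6% of all genes, and 10 of the 12 did not pass the test.

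**Figure D3:**
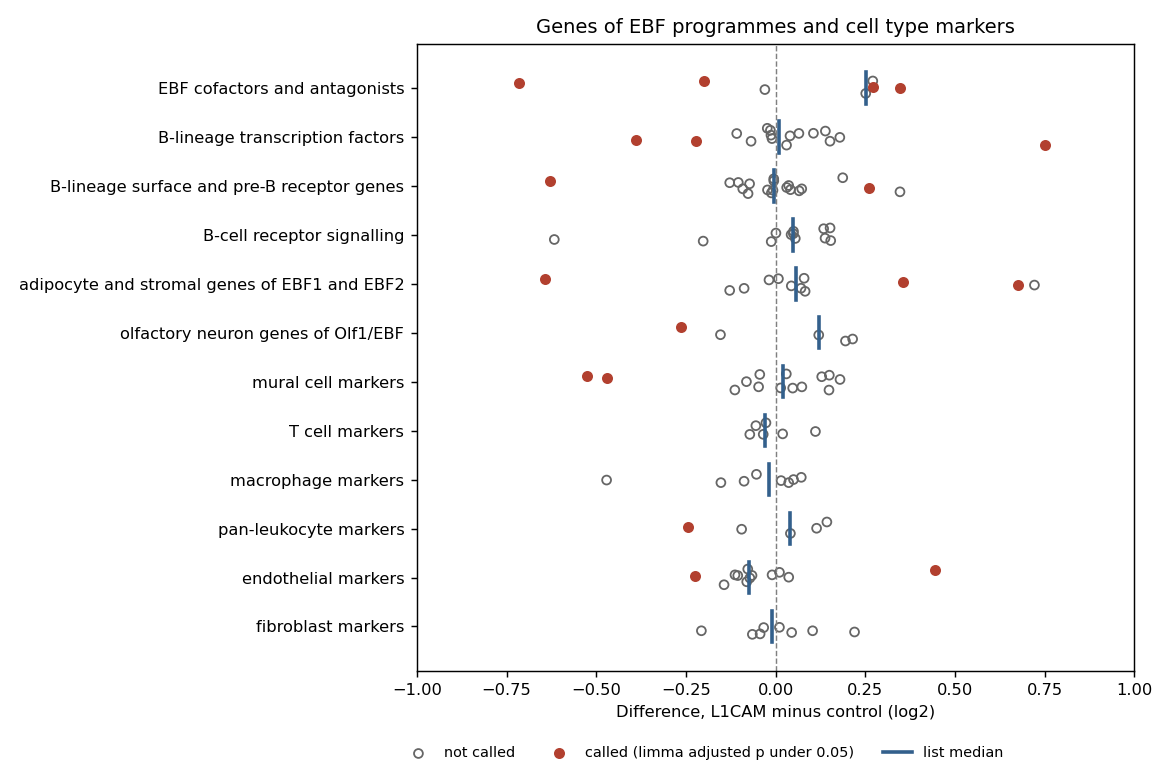
Difference between L1CAM and control cells (log2, horizontal axis) for each measured gene of 6 EBF-related lists and 6 marker lists. Filled points passed the limma test over all genes, open points did not, and the vertical bars are list medians. Medians of the 3 B-lineage lists lie between -0.01 and 0.05, and the filled points farthest from 0 in those 3 lists are Runx1 (0.75), Bst1 (-0.63) and Irf8 (-0.39).

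Genes with a profile like that of Ebf1 were sought by Pearson's r over the 6 arrays, among 576 other genes with an SD over the arrays of at least 0.5. The 5 highest were Car5b (0.989), a mitochondrial carbonic anhydrase, Gli3 (0.988), a transcription factor of Hedgehog signalling, Gria3 (0.988), an AMPA receptor subunit, Stmn2 (0.988), a neuronal microtubule regulator, and Npnt (0.987), the matrix protein nephronectin. These r values are a description, set mostly by the gap between the 2 groups that all these genes share. None of the 5 belonged to the lists above. Gli3 read 7.50, 7.24 and 6.97 in L1CAM replicates 1 to 3, against 6.33, 5.89 and 6.17 in control replicates 1 to 3, with replicate 1 highest in each group, as for Ebf1. Gria3 had the same order of its highest arrays, with 7.73, 7.15 and 7.15 in L1CAM replicates 1 to 3, against 6.16, 5.32 and 5.36 in control replicates 1 to 3.

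**Figure D4:**
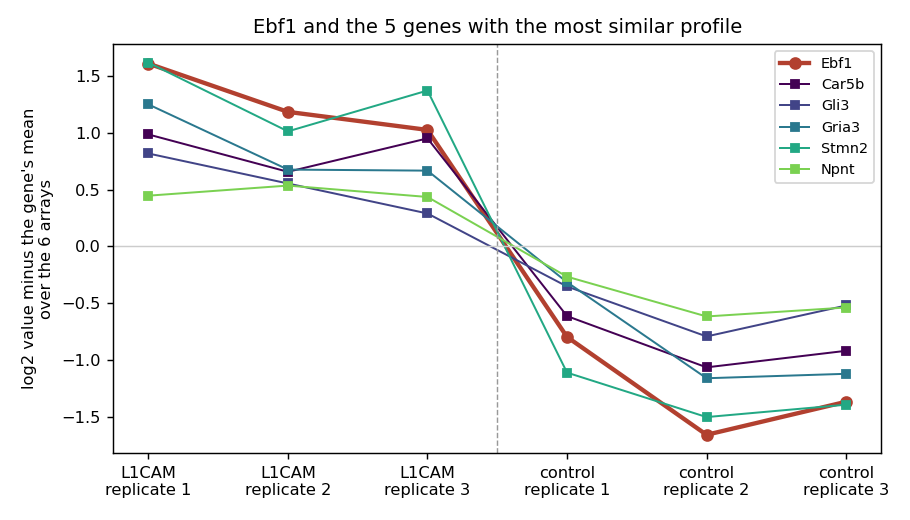
Log2 value minus the gene's own mean over the 6 arrays (vertical axis) for Ebf1 and the 5 genes with the highest Pearson's r to it, on the L1CAM arrays left of the control arrays. Lines join the arrays of a gene for tracing only, and replicates have no order. Ebf1 is highest on L1CAM replicate 1 (9.50 before centring) and lowest on control replicate 2 (6.24).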

How the data were processed

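Total RNA of 3 L1CAM and 3 control cultures was measured on Affymetrix arrays. The authors deposited RMA summaries on the log2 scale, 1 value for each probe set and array; the submitters' processing notes name Affymetrix Expression Console 1.1. Its settings and the genome build of the array design were not stated. RMA pulls dim probe sets together, which understates changes near background, and the number of arrays limits the precision.

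Of 35512 probe sets, 21789 had 1 gene symbol in the platform annotation, 1621 had several and 12102 were unlisted or had no symbol. A gene with several was read from the one of highest mean, which gave 19938 genes. The moderated test of limma (version 3.58.1, under R 4.3.3) compared the groups, two-sided, with Benjamini-Hochberg adjustment over all genes and a threshold of 0.05. SE is the moderated standard error, and 95% intervals are not adjusted. Python 3.11.15 with pandas 2.3.3, numpy 2.4.6 and matplotlib 3.10.9 made the tables and figures.

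The members and lists were chosen with earlier results of these data known. Named from each list were up to 4 called genes per direction by size, or, where none passed, the 2 with the smallest p. Further list genes (Tcf3, Foxo1, Igll1, Vpreb1, Vpreb3, Id1, Id2, Id3, Cxcl12, Pparg, Pdgfrb, Rgs5, Cspg4, Notch3, Myh11, Kcnj8, Ptprc, Lyz2, Cx3cr1) were named after their values were seen. Lists are described by counts and medians, with no set test. Data were simulated for the comparison of L1CAM with control over 19938 genes, with 50 genes changed per size. There 92% of changes of 0.5 and 100% of changes of 1 were recovered, and 14 unchanged genes were called. These shares hold for the simulated data, and recovery on the real arrays was not tested. Real calls ran from 1033 without control replicate 2 to 4952 without L1CAM replicate 1. The simulated shares may therefore overstate recovery on the real arrays. The 16 alternatives covered normalization, the dim filter, probe set choice, the variance prior, array weights, a replicate block and leaving out each array. The promoter table is that of RefSeq (GRCm38.p6).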

Additional observations from a re-analysis of the deposited data

How the results depend on the processing

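Ebf1 differed by 2.35 to 2.78 under the 16 alternatives. Ebf1 was not tested. Of the 6 members tested, only Cd79a was called under any alternative, without control replicate 2 (-0.41, limma adjusted p = 0.0256). The number of tested members called thus ran from 0 to 1 when single arrays were left out. With 1 array left out, Cd79a ran from -0.41 to -0.23, Pax5 from -0.058 to 0.099 (below 0 without control replicate 1 and, at -0.030, without L1CAM replicate 3) and Blnk from -0.0067 (without L1CAM replicate 3) to 0.087. The filter on dim probe sets left only Ebf1 and Ebf3 of the members with a value, and Ebf3 had an adjusted p of 0.0914 there. Calls over all genes numbered 2999, with 581 under an ordinary linear model, 5191 with array weights and 1033 to 4952 when 1 array was left out. Over the 124 measured list genes 18 were called, with 2 under an ordinary linear model and 4 to 26 when 1 array was left out. The 47 B-lineage genes, counted together in an alternative added after seeing the data, had 5 calls, with 1 under an ordinary linear model, 10 with array weights, 3 with the replicate block and 2 to 9 when 1 array was left out. Same-numbered arrays deviated from their group means with correlations of -0.10, -0.10 and -0.03, and no array correlated best with its own number. With deviations taken from means of 3 arrays, this check cannot tell whether same-numbered cultures shared a day or batch. With the replicate block 2067 genes passed in all, Ebf3 had an adjusted p of 0.0819, and of the named genes Id4, Zfp423, Spib, Rag2, Cnga2, Arhgdib and Cldn5 did not pass. Of 19 named genes that passed, L1cam included, 4 were called in every fit that left out 1 array (L1cam, Irf8, Bst1 and Anpep). Of these 19 genes 0 changed sign under any alternative, while the members Pax5 and Blnk, which did not pass, changed sign as given above. The causes of these changes were not tested, and the fits that leave 1 array out also hold fewer arrays. Most members lay below the array medians, which limits what the arrays can show of them.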
